A study of Homo sapiens with 8 samples.

Results

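The genes described here encode the contractile core of the non-muscle cytoskeleton: the cytoplasmic actins ACTB and ACTG1, the tropomyosins TPM1, TPM2, TPM3 and TPM4, the light chains MYL6, MYL12A and MYL12B of non-muscle myosin II, and its heavy chain MYH9. They were taken by symbol from the count table, and all 10 were found among its 58302 genes. The cells were A549, an established line from a human lung adenocarcinoma, transfected with an siRNA against APEX1, the gene of the DNA repair endonuclease APE1, or with a scramble siRNA. The series holds 8 RNA-seq libraries, 4 labelled siAPEX1 and 4 labelled siCTRL, from transient transfection of 1 cell line. The study calls them biological replicas without saying whether each came from its own transfection, so the p-values measure the spread between these samples, which may be technical. A small RNA kit, modified by the authors to capture primary miRNA transcripts as well, was used for the libraries, in which protein-coding mRNA is the smaller share of the counts.

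Actin monomers assemble into polar filaments. Tropomyosins are coiled-coil dimers that lie along the filament and set which proteins can bind it, and non-muscle myosin II pulls on the filaments to give cell tension, adhesion and division. Each myosin II heavy chain carries an essential light chain, such as MYL6, and a regulatory light chain, such as MYL12A or MYL12B, whose phosphorylation switches the motor on.

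Between 1639796 and 1949886 reads were counted on genes in the siCTRL libraries and between 1348386 and 1619500 in the siAPEX1 libraries, so library size and group run together. APEX1 had 47 to 64 counts in the libraries labelled siCTRL and 19470 to 27916 in those labelled siAPEX1, which goes against the label of a silenced gene, and counts per gene do not separate mRNA from transfected siRNA. The study checked silencing by the APE1 protein, which was not analysed here. Each direction below is therefore that of the libraries labelled siAPEX1 over the libraries labelled siCTRL. Protein-coding genes held 20.54% to 21.652% of the counts in siCTRL and 16.941% to 18.115% in siAPEX1. The median of the log2 fold changes over all genes tested was -0.0035 with TMM factors and -0.34 when libraries were scaled by their size alone. Of 12 epithelial markers of A549 cells, 11 were measured well enough to test, with a summed level of 1690 to 1902 counts-per-million (CPM) units in siCTRL and 1428 to 1517 in siAPEX1, and each gene of the list had counts. Of the 11, 6 fell and 3 rose. The muscle marker list summed to 0 CPM in each siCTRL library and to 0.7943 to 2.163 CPM in siAPEX1, with 7 of its 10 genes at 0 in all libraries, among them DES and CKM. The fibroblast list summed to 2.422 to 7.746 CPM in siCTRL and 1.442 to 3.294 CPM in siAPEX1, with LUM and POSTN at 0, and the endothelial and blood cell list to at most 2.779 CPM, with 6 of its genes at 0, among them PECAM1, CDH5, KDR and HBA1. The keratin genes KRT7, KRT8, KRT18 and KRT19 were lower in siAPEX1, by 1.01 (KRT8) to 2.31 (KRT19) on the log2 scale. The markers that rose were CDH1 by 0.92 (edgeR adjusted p = 0.000245), AKR1B10 by 0.83 (8.21e-09) and AKR1C2 by 0.44 (0.000206). These markers were chosen for naming after their values were seen. The part of the marker genes in the results below was not tested.

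Of the 10 genes, 5 fell and 1 rose in siAPEX1 (edgeR's quasi-likelihood test, adjusted p at most 0.05 by Benjamini and Hochberg over 5368 genes). The genes that fell were the light chains MYL12B, MYL12A and MYL6 and the tropomyosins TPM2 and TPM1. The gene that rose was ACTB. ACTG1, TPM3, TPM4 and MYH9 did not pass the test. In the same fit 15.8% of all genes tested fell and 15.9% rose, and of the 4870 protein-coding genes tested 15.9% fell and 12.5% rose. All 10 genes passed the filter on low counts. Among the 1990 protein-coding genes at least as abundant as TPM3, the least abundant of the 10, the shares were 20.2% and 19.0%. The median log2 fold change of the 10 genes was -0.35, beside -0.03 for protein-coding genes. In 5 of the 10 genes the groups did not overlap in CPM, which held for 25.9% of protein-coding genes. MYL12B alone of the 10 passed a fold threshold as well, set at a change of 1 or more on the log2 scale, which 5.68% of all genes tested and 5.75% of protein-coding genes passed in the lower direction. At a threshold of 0.75, TPM2 passed too. The study uses both thresholds, the larger in its results and the smaller in its methods. With library size alone as the scaling, 8 of the 10 fell and 0 rose, since none of the 10 had a log2 fold change above 0 there, and over all genes tested 1945 fell and 340 rose in place of 847 and 856.

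**Figure D1:**
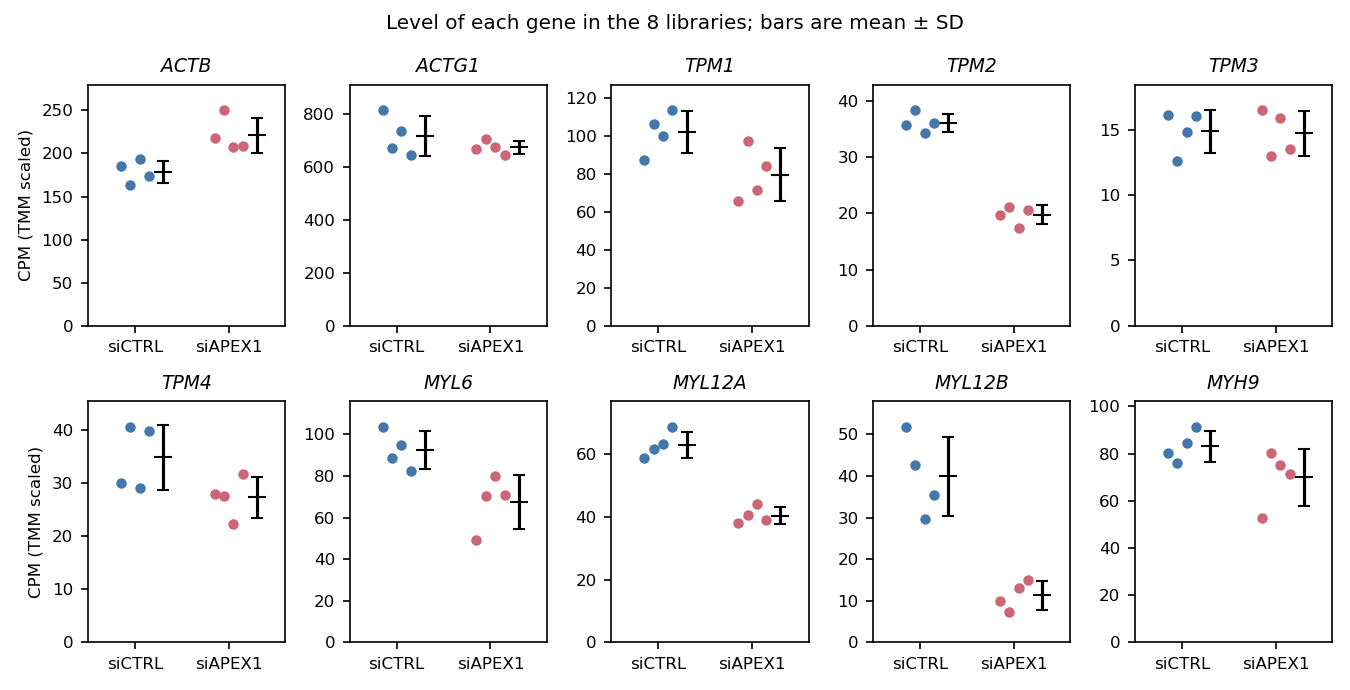
Level of the 10 genes in the 8 libraries, in CPM scaled by TMM factors (vertical axes from 0), with siCTRL in blue, siAPEX1 in red and black bars for mean ± SD of 4 libraries. TPM2, MYL6, MYL12A and MYL12B lay lower in each siAPEX1 library than in any siCTRL library, ACTB lay higher, and the groups of the other genes overlapped.

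Together the 10 genes held 0.1497% ± 0.00989 of all counts in siCTRL and 0.1067% ± 0.0045 in siAPEX1 (SD, n = 4 each, as for all values with ± below), which is 0.7045% ± 0.0403 and 0.6154% ± 0.0379 of the protein-coding counts. Their summed CPM ranged from 1303 to 1464 in siCTRL and from 1167 to 1315 in siAPEX1. These sums are given as a description, since ACTG1 makes up most of them. A lower CPM can come from less RNA per cell or from fewer cells that hold it, and the libraries cannot tell these apart.

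Divided by the length of the canonical transcript, ACTG1 stood highest in siCTRL at 373.7 ± 38.99 CPM per kilobase, followed by MYL6 at 130.5 ± 12.76, ACTB at 98.75 ± 7.133 and TPM1 at 83.73 ± 9.073 CPM per kilobase (SD, n = 4). ACTB and TPM1 lay within their SDs of each other. MYL12A followed at 65.76 ± 4.314 CPM per kilobase, and MYL12B at 34.28 ± 8.214 and TPM2 at 30.3 ± 1.38 could not be separated by their spread. TPM4 at 14.14 ± 2.478 and MYH9 at 11.14 ± 0.8696 CPM per kilobase were also within their SDs of each other, and TPM3 was lowest at 2.108 ± 0.2322, over a canonical transcript of 7064 bases. In siAPEX1 the order was changed at 2 places. ACTB at 122.0 ± 11.01 CPM per kilobase stood above MYL6 at 95.6 ± 18.3, though within their SDs, and MYL12B at 9.728 ± 2.944 had moved below TPM2 at 16.56 ± 1.425 to the level of TPM4 at 11.09 ± 1.566 and MYH9 at 9.378 ± 1.613. The SDs are those between libraries, and the genes were not compared with each other within each library. These levels rest on 1 transcript length per gene and on a kit for small RNA, so they rank the genes roughly.

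ACTB and ACTG1 encode the beta and gamma cytoplasmic actins, proteins that are nearly the same and differ at their amino end. ACTB (ENSG00000075624) lies on chromosome 7 from 5526409 to 5563902 on the minus strand of GRCh38, and ACTG1 (ENSG00000184009) on chromosome 17 from 81509413 to 81523847, also on the minus strand. Their coding sequences are equally long at 1128 bases and differ at 99 of them, an identity of 91.2%, whereas the parts after the stop codon aligned with 57.5% identity. The first 60 coding bases in GENCODE 44 are shown because they hold the stretch in which the proteins differ, with capitals at the 10 positions where the genes differ:
ACTB: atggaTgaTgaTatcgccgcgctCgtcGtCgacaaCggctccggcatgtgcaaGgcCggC
ACTG1: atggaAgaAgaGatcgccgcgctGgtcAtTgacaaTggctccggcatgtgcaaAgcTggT
A read from this stretch has several positions by which it can be assigned to 1 of the genes.

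ACTB had 185.0, 163.7, 193.2 and 173.8 CPM in the 4 siCTRL libraries and 218.2, 250.0, 207.6 and 208.1 CPM in the 4 siAPEX1 libraries. Each siAPEX1 library was above each siCTRL library, although the nearest were close. The mean was 178.9 ± 12.93 CPM in siCTRL and 221.0 ± 19.94 in siAPEX1, which differed by 0.30 on the log2 scale (standard error 0.0947, edgeR adjusted p = 0.0119), or 1.23-fold. The call did not hold with DESeq2 (adjusted p = 0.063), with other filters on low counts, or without siCTRL replicate 2 (adjusted p = 0.0543). With library size alone as the scaling the direction turned, at a log2 fold change of -0.04 (adjusted p = 0.768), in a fit whose median over all genes was -0.34.

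ACTG1 was the most abundant of the 10 genes, with 1168 to 1620 counts in siCTRL and 811 to 940 in siAPEX1. Its scaled levels were 814.6, 672.7, 735.0 and 646.4 CPM in siCTRL and 668.6, 706.9, 677.6 and 644.2 CPM in siAPEX1. These ranges overlapped, and the siAPEX1 libraries lay within the range of the siCTRL libraries but for 1 that was just below it. The change was -0.09 on the log2 scale (standard error 0.0886, edgeR adjusted p = 0.485), and 2 standard errors on either side reached from -0.27 to 0.09. With library size alone the change was -0.43 (adjusted p = 0.000112), again beside the median of -0.34.

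The tropomyosin genes lie on 4 chromosomes. TPM1 (ENSG00000140416) is on chromosome 15 from 63042620 to 63071915, TPM2 (ENSG00000198467) on chromosome 9 from 35681992 to 35690056, TPM3 (ENSG00000143549) on chromosome 1 from 154155308 to 154194648, and TPM4 (ENSG00000167460) on chromosome 19 from 16067021 to 16103002. Each makes several isoforms by alternative promoters and splicing, which gene counts do not separate. The coding sequences of their canonical transcripts were 71.9% to 80.1% identical in pairs. Of the 4 genes, 2 fell and 2 did not pass the test, and differences between their fold changes were not tested.

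TPM2, which encodes beta-tropomyosin, showed the clearest change of the family. It had 71, 79, 74 and 65 counts in siCTRL and 24, 26, 24 and 26 in siAPEX1, that is 35.7, 38.26, 34.29 and 35.97 CPM against 19.76, 21.1, 17.3 and 20.65 CPM. The groups were far apart relative to their spread, with coefficients of variation of 4.56% and 8.61%. The level in siAPEX1 was 54.7% of that in siCTRL, or -0.87 on the log2 scale (standard error 0.157, edgeR adjusted p = 2.22e-05), and 7.97% of protein-coding genes had a lower one. TPM2 was called lower under each alternative tried, with log2 fold changes from -1.21 to -0.78.

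TPM1, which encodes alpha-tropomyosin and is the most abundant of the family in these cells, had 87.49, 106.5, 100.1 and 113.5 CPM in siCTRL and 65.88, 97.4, 71.37 and 84.2 CPM in siAPEX1. Replicate 2 of siAPEX1 lay within the siCTRL range and the other siAPEX1 libraries below it. On the log2 scale the change was -0.35 (standard error 0.116, edgeR adjusted p = 0.0163). The call was lost with DESeq2 (adjusted p = 0.0901), without siCTRL replicate 4 (0.0607), without siAPEX1 replicate 1 (0.128) and without siAPEX1 replicate 3 (0.107), while the direction stayed. Exons of TPM1 share 18% of their bases with the antisense gene TPM1-AS, which had 3 counts over the 8 libraries.

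TPM4 had 30.17, 40.68, 29.2 and 39.85 CPM in siCTRL and 28.0, 27.6, 22.35 and 31.77 CPM in siAPEX1. The siCTRL libraries fell into a higher and a lower pair, and the groups overlapped in 1 siAPEX1 library. Its log2 fold change of -0.35 had the same size as that of TPM1 but a larger standard error of 0.158, and it did not pass the test (edgeR adjusted p = 0.0879). It passed with library size alone (adjusted p = 0.000355), with at least 10 counts required in every library (0.0306) and without siCTRL replicate 3 (0.0477).

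TPM3 was the least counted of the 10, with 26 to 32 counts in siCTRL and 16 to 22 in siAPEX1. Its levels were 16.09, 12.59, 14.83 and 16.05 CPM in siCTRL and 16.47, 12.99, 15.86 and 13.5 CPM in siAPEX1, ranges that nearly coincide. The change between groups was -0.01 on the log2 scale (standard error 0.206, edgeR adjusted p = 0.976). At this depth, 2 standard errors on either side spanned -0.42 to 0.40, which includes the change seen in TPM1.

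MYL12A and MYL12B encode nearly identical regulatory light chains of non-muscle myosin II and are neighbours on the plus strand of chromosome 18. MYL12A (ENSG00000101608) runs from 3247481 to 3256236 and MYL12B (ENSG00000118680) from 3261479 to 3278461. Their coding sequences of 516 and 519 bases are 95.7% identical and differ at 22 aligned positions, while the parts after the stop codon aligned with 62.8% identity. The last 60 coding bases of each are shown because they hold no difference, so that no base is in capitals:
MYL12A: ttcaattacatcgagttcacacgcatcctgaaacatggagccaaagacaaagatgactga
MYL12B: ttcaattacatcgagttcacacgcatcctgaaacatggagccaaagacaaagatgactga
A read that lies within this stretch fits both genes, and the counting used reads with 1 place in the genome. The counts of the pair therefore come from reads that reach a difference.

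MYL12B changed most of the 10 genes. It had 103, 88, 64 and 64 counts in siCTRL and 12, 9, 18 and 19 in siAPEX1, that is 51.79, 42.62, 29.66 and 35.42 CPM against 9.881, 7.305, 12.98 and 15.09 CPM. The lowest siCTRL library had a much higher level than the highest siAPEX1 library, although the spread within groups was wide, with coefficients of variation of 24% and 30.3%. The log2 fold change was -1.80 (standard error 0.207, edgeR adjusted p = 3.18e-09), and 0.903% of the protein-coding genes tested had a lower one. The gene was called in each of the 16 alternatives that tested it, with log2 fold changes between -2.14 and -1.62. Requiring 10 counts in every library left it out, because siAPEX1 replicate 2 had 9.

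MYL12A had 58.83, 61.5, 63.03 and 68.62 CPM in siCTRL and 37.88, 40.58, 43.97 and 38.92 CPM in siAPEX1. Its replicates were close, with coefficients of variation of 6.56% and 6.61%, and the groups were well apart. Its level fell by 0.64 on the log2 scale (standard error 0.123, edgeR adjusted p = 6.7e-05), and it was called under each of the 17 alternatives, between -0.98 and -0.58. The antisense gene MYL12-AS1 overlaps both regulatory light chain genes and had 8 counts over the 8 libraries.

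MYL6 (ENSG00000092841, chromosome 12 from 56158346 to 56163496, plus strand) encodes the essential light chain of smooth muscle and non-muscle myosin II. It had 103.6, 88.62, 95 and 82.46 CPM in siCTRL and 49.41, 70.61, 80.02 and 70.69 CPM in siAPEX1. The groups did not overlap, but siAPEX1 replicate 1 lay well below the other siAPEX1 libraries. The log2 fold change was -0.44 (standard error 0.12, edgeR adjusted p = 0.00353), and without siAPEX1 replicate 1 it was -0.30 with the call lost (adjusted p = 0.0586). MYL6 shares 89 exon bases with MYL6B on its own strand and 719, or 16.3%, with SMARCC2 on the opposite strand, where the setting for strand in the counting is not given in the sources used here.

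MYH9 (ENSG00000100345, chromosome 22 from 36281280 to 36388010, minus strand) encodes the heavy chain of non-muscle myosin IIA, the motor on which these light chains sit. It had 80.45, 76.03, 84.34 and 91.31 CPM in siCTRL and 52.7, 80.35, 74.97 and 71.49 CPM in siAPEX1. Replicate 1 of siAPEX1 was low, as for MYL6, and replicate 2 lay within the siCTRL range. The log2 fold change was -0.24 (standard error 0.117, edgeR adjusted p = 0.111). It passed with library size alone (adjusted p = 5.73e-05), with all genes of at least 1 count (0.0496) and with at least 10 counts in every library (0.0253).

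**Figure D2:**
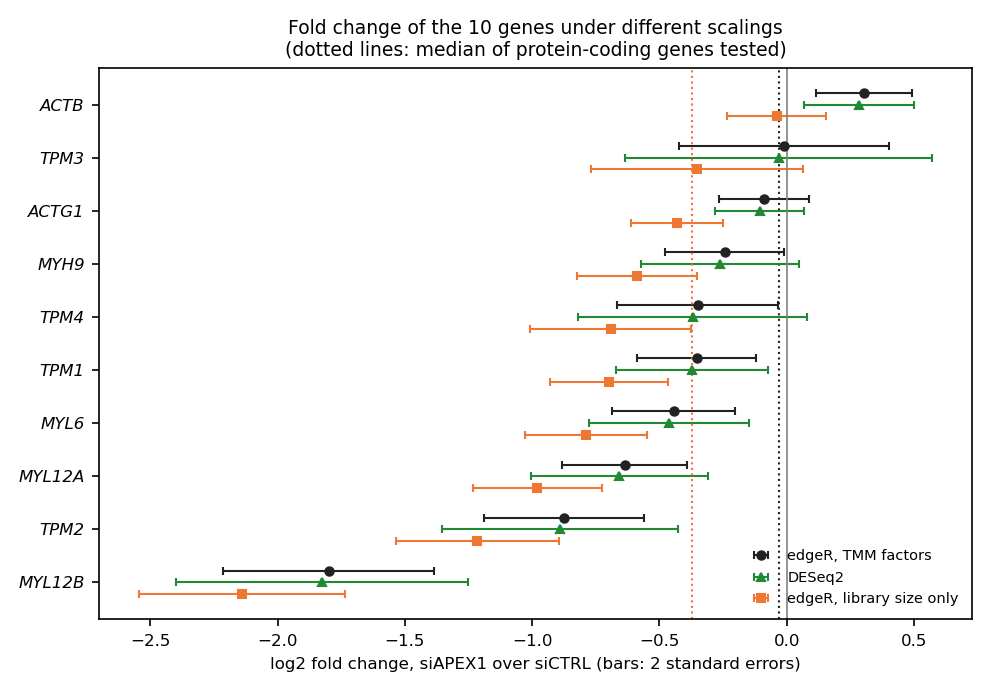
Log2 fold change of siAPEX1 over siCTRL (horizontal axis) for the 10 genes under edgeR with TMM factors (black), DESeq2 (green) and edgeR with library size alone (orange), with bars of 2 standard errors and dotted lines at the median of the protein-coding genes under the edgeR fit of the same colour. Leaving out the TMM factors shifts all genes by nearly the same amount by construction, and the protein-coding median went from -0.03 to -0.37. MYL12B was lowest in each fit.

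Shares of counts within a pair or family do not depend on the scaling between libraries. ACTB made up 18.51%, 19.57%, 20.82% and 21.19% of the counts of the actin pair in siCTRL and 24.61%, 26.12%, 23.45% and 24.42% in siAPEX1. Each siAPEX1 library was above each siCTRL library, and the 95% Wilson intervals of single libraries, which cover counting error only, were 1.71 to 2.57 points on either side. The mean rose from 20.02% ± 1.22 to 24.65% ± 1.1 (SD, n = 4), a difference of 4.63 points (two-sided exact permutation p = 0.0286, adjusted over 6 shares to 0.0571). This p is the smallest that 4 libraries against 4 allow, and the adjusted value did not pass 0.05.

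MYL12A made up 53.18%, 59.07%, 68.0% and 65.96% of the counts of the regulatory light chain pair in siCTRL and 79.31%, 84.75%, 77.22% and 72.06% in siAPEX1. The groups did not overlap, and the mean went from 61.55% ± 6.76 to 78.33% ± 5.25 (SD, n = 4), a difference of 16.8 points with the same permutation p of 0.0286 and exact adjusted value of 0.0571. The counts behind each share were few, with Wilson half-widths of 6.41 to 10.4 points. TPM2 made up 21.07%, 19.32%, 19.22% and 17.52% of the tropomyosin counts in siCTRL and 15.19%, 13.27%, 13.64% and 13.76% in siAPEX1. These groups did not overlap either, with a difference of -5.32 points (two-sided exact permutation p = 0.0286, adjusted 0.0571). The shares of TPM1, TPM3 and TPM4 overlapped between the groups. They differed by 1.85 points (exact permutation p = 0.514, adjusted 0.543) for TPM1, 2.58 points (0.171, adjusted 0.257) for TPM3 and 0.883 points (0.543, adjusted 0.543) for TPM4.

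**Figure D3:**
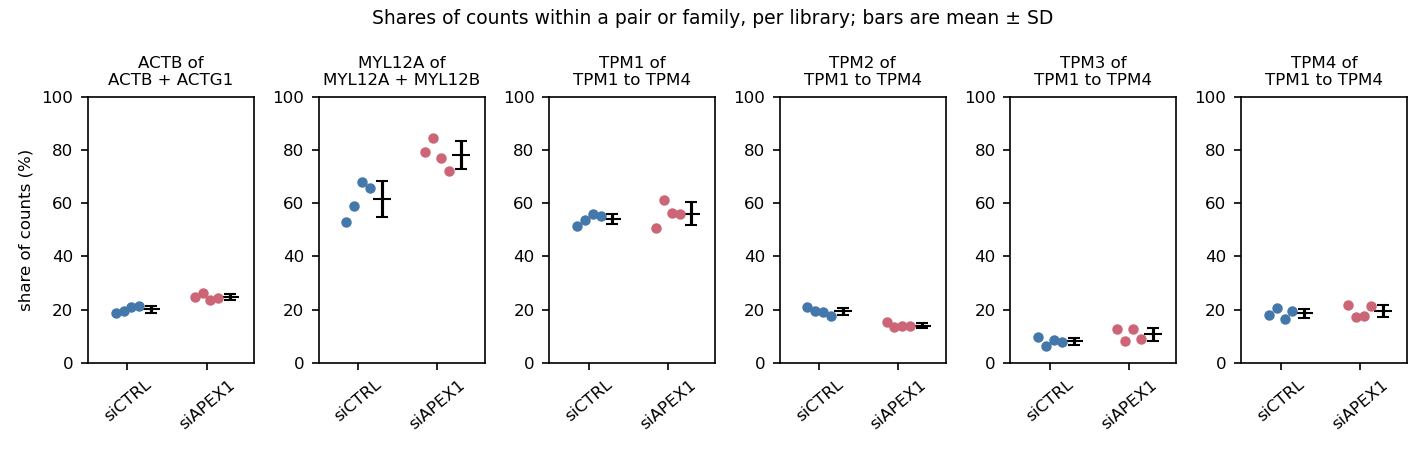
Share of counts (vertical axes, percent from 0 to 100) that ACTB, MYL12A and each tropomyosin gene held within its pair or family in each library, with siCTRL in blue, siAPEX1 in red and black bars for mean ± SD of 4 libraries. The shares of ACTB, MYL12A and TPM2 did not overlap between the groups, and that of MYL12A differed most, by 16.8 points.

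Part of each mRNA is also found elsewhere in the genome, in paralogs and in processed pseudogenes. Reads that lie wholly within a copied stretch would be set aside when reads with 1 place are counted. Of all windows of 25 bases in the canonical transcript, 63.65% in ACTB and 64.57% in TPM4 had an exact copy outside the gene, against 41.0% in ACTG1, 35.29% in MYL12B and 33.94% in MYL12A. The share was 28.3% in TPM3, 25.29% in MYL6, 3.14% in MYH9, 3.0% in TPM2 and 1.34% in TPM1. For windows of 50 bases it was 32.37% in TPM4, 19.06% in ACTB, 14.08% in MYL12A, 12.03% in MYL12B, 8.24% in ACTG1, 7.18% in TPM3, 1.67% in MYL6, 0.68% in MYH9 and 0.0% in TPM1 and TPM2. In each gene the share was lower for the longer windows. The study sequenced reads longer than these windows, before trimming, and windows of full read length were not examined. How many reads were set aside in each library was not tested.

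**Figure D4:**
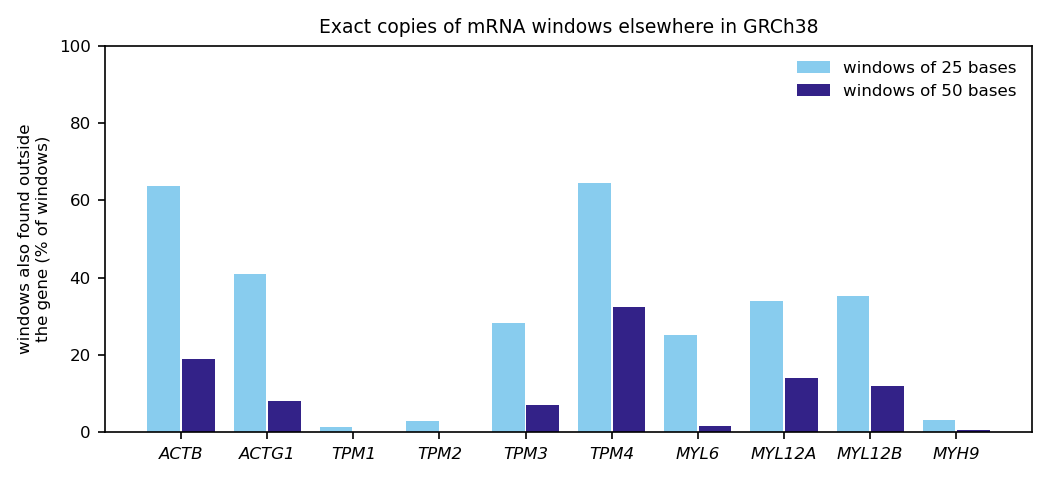
Percent of the 25-base (light) and 50-base (dark) windows of each canonical transcript that have an exact copy in GRCh38 outside the gene itself (vertical axis from 0 to 100). ACTB and TPM4 had copies of 63.65% and 64.57% of their 25-base windows, and TPM1 and TPM2 of 1.34% and 3.0%.

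By symbol, the table holds 54 annotated pseudogenes of the 10 genes, of which 12 had a count. They summed to 31 counts over the 8 libraries, or 0.18% of the 17176 counts of the genes themselves. TPM3 stood apart, with 19 pseudogene counts, equal to 9.794% of its own. These came as 3, 3, 3 and 3 counts in siCTRL and 2, 1, 2 and 2 in siAPEX1.

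The wider actin and myosin machinery was followed through 8 lists with 137 different genes, of which 97 could be tested. In siAPEX1, 23 of these fell and 13 rose, and their median log2 fold change was -0.12. Of all genes tested in the same fit, 15.8% fell and 15.9% rose. The counts of each list below stand beside these shares, and no list was tested against them. With library size alone as the scaling, 48 of the 97 fell and 4 rose, beside 1945 and 340 of all genes tested. The other actin genes, mostly those of muscle, were close to 0: none of the 5 could be tested, ACTC1 and ACTG2 had no counts, and no gene of the list had more than 9 counts in a library. Of the 10 other myosin light chain genes, 7 had no counts, among them MYL9, the smooth muscle regulatory light chain. MYL11, a light chain of fast skeletal muscle, had 1, 2, 2 and 3 counts in siCTRL and 13, 9, 10 and 9 in siAPEX1. The groups did not overlap (edgeR adjusted p = 9.87e-07). However, MYL11 passed the filter on low counts only through its siAPEX1 libraries, so these values are given as a description. With at least 10 counts required in every library, 0 genes of this list were tested. MYL11 thus has a fold change that rests on those few counts. Its mean of 8.092 ± 1.743 CPM in siAPEX1 lay below that of MYL12A and within the SDs of MYL12B, which had 11.31 ± 3.424 CPM there, whereas in siCTRL it lay far below both.

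Of the 16 other myosin heavy chain genes, 12 were tested, 3 rose and 2 fell, with a median log2 fold change of 0.15. MYH10 was among those that rose, by 0.72 (standard error 0.225, edgeR adjusted p = 0.0122), with groups that overlapped. It is named after its values were seen. With library size alone 0 genes of this list rose, and with DESeq2 1 did. MYO1C, a membrane-bound class I myosin, fell by 0.71 on the log2 scale (standard error 0.183, edgeR adjusted p = 0.00221). MYO5C, a class V myosin of epithelial secretory cells, fell by 0.81 (standard error 0.25, adjusted p = 0.0108). The kinases, phosphatase subunits and small GTPases that set the phosphorylation of the regulatory light chain had a median of 0.02, with 1 of 11 tested genes higher and 1 lower. The gene that fell was RHOC, a small GTPase, from 29.62 ± 3.929 to 17.59 ± 2.814 CPM (adjusted p = 0.000974). The gene that rose was RHOB, of the same family, from 16.56 ± 4.727 to 26.02 ± 2.426 CPM (adjusted p = 0.00485), with groups that overlapped. RHOB is named after its values were seen. Its call was lost with library size alone and with DESeq2, where 0 genes of this list were higher.

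Among genes that start actin filaments, 2 of 21 tested rose and 2 fell, with a median of -0.17. ACTR2, which encodes the ARP2 subunit of the branching complex, fell from 60.65 ± 5.73 to 14.92 ± 5.566 CPM, or -2.04 on the log2 scale (standard error 0.169, edgeR adjusted p = 6.86e-13). The other subunits changed less. ARPC1B fell by 0.54 (adjusted p = 0.019), with groups that overlapped. ACTR3, ARPC1A, ARPC2, ARPC3, ARPC4 and ARPC5 were not called, with log2 fold changes from -0.51 (ARPC4) to -0.12 (ARPC5). These subunits are named after their values were seen. CTTN, encoding the branch stabiliser cortactin, rose by 0.40 (adjusted p = 0.0446). Of the genes of actin monomers and filament turnover, 5 of 18 tested fell and 1 rose, with a median of -0.18. CFL1, encoding the severing protein cofilin, fell from 111.0 ± 11.6 to 40.8 ± 4.156 CPM, or -1.44 on the log2 scale (adjusted p = 9.06e-13). PFN1, encoding the monomer-binding profilin, fell by 0.65 (adjusted p = 3.15e-05), CAPZB, encoding a capping protein, by 0.58 (0.0218), and LIMK1, encoding a kinase that inactivates cofilin, by 0.85 (0.0148). TMSB4X, encoding the monomer-sequestering thymosin beta-4, rose from 128.9 ± 13.93 to 213.4 ± 27.84 CPM, or 0.73 on the log2 scale (adjusted p = 2.72e-07). The more abundant thymosin gene TMSB10 fell from 307.0 ± 49.05 to 250.0 ± 14.61 CPM, or -0.30 on the log2 scale (adjusted p = 0.0186), with groups that overlapped. TMSB10 is named after its values were seen. The genes that bind actin monomers thus did not share a direction.

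The list of crosslinking, bundling and membrane-linking proteins had the lowest median, -0.40, with 13 of 26 tested genes lower and 2 higher. FLNA, encoding the crosslinker filamin A, fell from 140.3 ± 21.9 to 67.92 ± 3.366 CPM, or -1.05 on the log2 scale (standard error 0.114, edgeR adjusted p = 8.34e-10). ZYX, encoding the focal adhesion protein zyxin, fell by 1.04 on that scale (adjusted p = 6.41e-05), PDLIM7 by 0.98 (0.00665), and MSN, encoding moesin, which ties filaments to the membrane, by 0.98 (5.71e-05). ENAH, which promotes filament growth, rose by 0.52 (adjusted p = 0.0042). The next list holds serum response factor (SRF), its actin-sensing coactivators and some of the genes they are known to drive. It had a median of 0.37, with 3 of 8 tested genes higher. By edgeR 0 were lower, also at an unadjusted p of 0.05, after a filter that left out FHL1, with 15, 18, 9 and 13 counts in siCTRL and 4, 2, 0 and 3 in siAPEX1. Library size alone gave 2 higher and 2 lower. DESeq2 and edgeR on all genes with at least 1 count, which tested 13 of the list, gave 1 lower, as did edgeR without siCTRL replicate 3 or without any 1 of the siAPEX1 libraries. The genes that rose were CCN2, a secreted matrix-associated protein, by 1.11 (adjusted p = 5.23e-07), and the immediate early genes FOS by 0.995 (1.11e-08) and EGR1 by 0.54 (5.46e-05). The 5 genes of this list that edgeR tested and did not call were MRTFA (0.50), MRTFB (0.23), VCL (0.18), CCN1 (-0.11) and FHL2 (-0.50). ACTA2, TAGLN, CNN1 and MYL9 of this list were too low to be tested there, so the median does not cover them. The list does not hold all genes that SRF may drive. Genes counted elsewhere, such as FLNA and ZYX, which fell, and ENAH, which rose, were not tested as SRF targets. Nor were the genes of the contractile core. The median is therefore not that of SRF-driven genes as a group. With library size alone, CTTN, ENAH and EGR1 no longer passed (adjusted p from 0.129 to 0.778), and with DESeq2 MYO5C, CTTN, CAPZB, LIMK1, PDLIM7 and ENAH did not (0.0971 to 0.303).

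**Figure D5:**
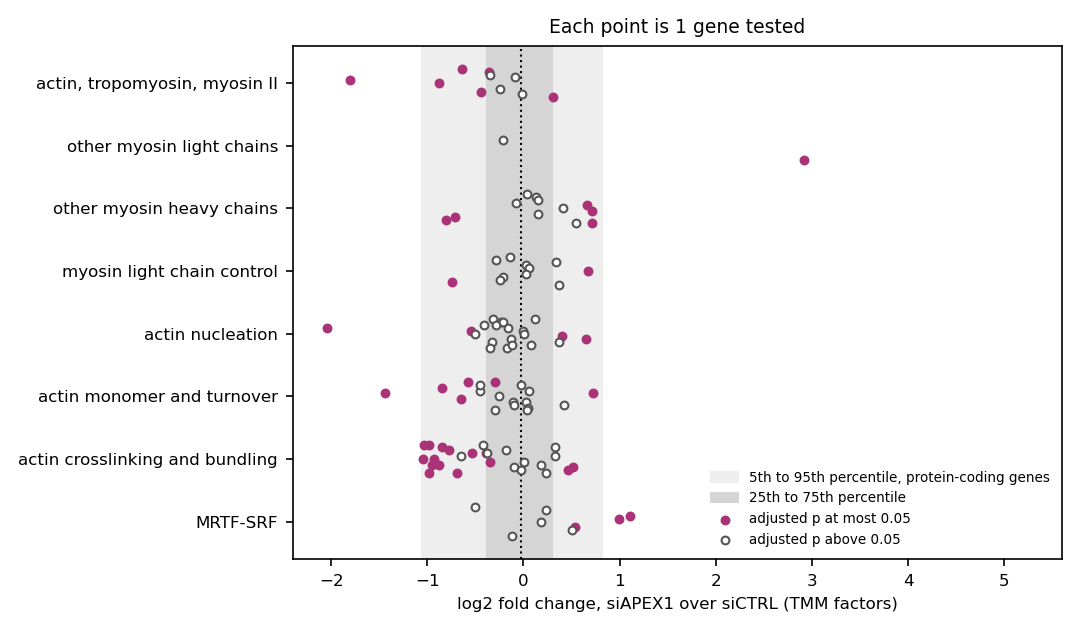
Log2 fold change of siAPEX1 over siCTRL (horizontal axis, TMM factors) for each tested gene of the contractile core and of the lists around it, with filled points for genes at an adjusted p of at most 0.05, open points for the others and grey bands for the percentiles of protein-coding genes. The crosslinking list lay furthest to the left, with a median of -0.40, and the point at the far right is MYL11, whose siCTRL libraries had 1 to 3 counts.

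Sequence before the transcription start was available for 9 of the 10 genes in the RefSeq table (GRCh38.p14), without ACTB. In the 250 bases before the start, on either strand, the motif of SRF known as the CArG box, that is CC, then 6 bases of A or T, then GG, was present in ACTG1 and TPM4 and in 1.14% of 27305 such windows. The other 7 genes held no such letters in this window. Only the window listed first for each gene was searched, and any other start, as of the tropomyosin genes, was not examined. The boxes are shown with their flanks, in the direction of the gene and with the box in capitals, because they are the letters by which SRF is known to bind:
ACTG1: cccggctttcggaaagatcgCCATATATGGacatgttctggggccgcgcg
TPM4: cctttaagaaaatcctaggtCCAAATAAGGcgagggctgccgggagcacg
The ACTG1 stretch is chr17:81512864-81512913 on the minus strand, with the box at -94 to -85 from the start, and the TPM4 stretch is chr19:16067345-16067394 on the plus strand, with the box at -173 to -164. ACTG1 and TPM4 were among the genes that did not pass the test between siAPEX1 and siCTRL. All motifs were sought on both strands, and a CArG box can hold CCAAT or TATAAA within it. The letters GGGCGG, the core of GC boxes, stood in all 9 windows and in 42.31% of all windows. CCAAT stood in ACTG1, MYH9 and MYL6 and in 33.04% of all windows, CATTCC, the core of the TEAD motif, in MYH9 and 11.9%, and TATAAA in 0 of the 9 and 11.13%. These matches describe the sequence and not a bound factor.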

How the data were processed

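RNA-seq was made from A549 cells with a small RNA kit. The authors removed adapters with cutadapt, aligned single-end reads to GRCh38 with STAR 2.5.3a and deposited its gene counts, whole numbers without normalization, from reads placed once and overlapping 1 gene. The annotation release and strand setting are not given in the sources used here. Of 58302 identifiers, 57532 matched GENCODE 44. Groups came from the labels. The members, lists and tests were chosen with earlier results of these data known.

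Counts were tested with edgeR 4.0.16 in R 4.3.3 (TMM factors, filterByExpr with a minimum count of 10 and total of 15, quasi-likelihood test, Benjamini-Hochberg adjustment over 5368 genes). The standard error is the log2 fold change over the square root of F. CPM are scaled by TMM factors. Shares were compared over the 70 labelings of the libraries with scipy 1.17.1. A count of 3 was the floor, for counting error only. Beside the 10 members, genes named are up to 4 per list and direction, called, without overlap, by size of change. Epithelial markers, MYH10, RHOB, TMSB10 and the genes of the SRF list that were not called or not tested were named after their values were seen. So were the subunits of the branching complex other than ACTR2. Replicates of a group differed by at least 2.019 times sampling noise (chi-square per degree of freedom). Alternatives were RLE and upper-quartile factors, no factors (library size only), TMM on protein-coding genes alone, DESeq2 1.42.0, 2 other filters, a threshold of 0.75, a replicate block, APEX1 left out and each library left out. On data simulated with this design over 5368 genes, edgeR recovered 75 of 100 genes changed by 1 and 87 of 100 changed by 2 on the log2 scale, with 14 unchanged genes called. Some genes that the rule for names would take are not reported here.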

Additional observations from a re-analysis of the deposited data

How the results depend on the processing

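With library size only, 0 of the 10 genes were called higher and 8 lower (2 past both thresholds), 4 genes of the pathway lists higher and 48 lower, and 340 of all genes higher and 1945 lower. With DESeq2 these were 0 genes of the 10 higher, 6 pathway genes higher, and 455 of all genes higher and 447 lower. With all genes of at least 1 count 0 of the 10 and 8 pathway genes were higher. With at least 10 counts in every library 0 of the 10 were higher and 0 lower past both thresholds, since MYL12B was not tested there. The fold threshold of 0.75 gave 2 lower past both. Leaving out 1 library at a time gave 0 to 1 of the 10 higher (0 without siCTRL replicate 2) and 3 to 6 lower (3 without siAPEX1 replicate 1). ACTB was reversed with library size only (-0.0399) and TPM3 with TMM factors from protein-coding genes (0.0251), and without single libraries TPM3 ranged from -0.0856 to 0.0655. Where 0 of the 10 were higher by DESeq2 or under the other filters, 1 (ACTB) passed at an unadjusted p of 0.05. The cause of these shifts was not tested. MYL12A, TPM2 and MYL12B kept their calls in each alternative that tested them, and the shares differed by 4.12 to 5.03 points (ACTB), 13.99 to 18.93 (MYL12A) and -5.91 to -4.72 (TPM2) without single libraries. Same-numbered libraries did not deviate together (correlations of -0.037 to -0.003), so the numbers were not taken as pairs, and the replicate block gave 1 higher and 5 lower of the 10. With 25 or fewer counts per library, as in siAPEX1 for TPM3 and MYL12B, counting error alone is wide.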
